A study of Mus musculus with 2 samples.

Results

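The enzymes of glycolysis and of the pentose phosphate pathway were followed as 37 mouse genes, taken from the deposited gene tables by identifier and ordered by pathway step. They cover 22 steps, from the carriers that bring glucose in to the carriers that let lactate out, and are 37 of 43346 mouse genes measured. They comprise 4 carrier genes, 22 genes of the glycolytic steps, 4 genes of the enzyme pair that makes and breaks down fructose 2,6-bisphosphate, and 7 genes of the pentose phosphate pathway. The rule used pathway membership and no measured value, but the members were chosen with earlier results of these data known.

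The RNA came from G1E-ER4 cells, a mouse erythroid line grown out from Gata1-null embryonic stem cells and carrying a GATA1 protein joined to the hormone-binding domain of the estrogen receptor, so that estradiol switches GATA1 on. Both libraries came from G1E-ER4 cells given 17beta-estradiol at 10 nM for 24 h, and the labels name them biological replicates 1 and 2 of 1 group. The line is 1 clone, both labels cite the same biosample record, and no untreated sample was analysed here, so the distance between the libraries may be technical and no effect of estradiol can be read.

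Glycolysis splits glucose to pyruvate and yields ATP. A mature red cell has no mitochondria and depends on it. Red cells also use a side path through bisphosphoglycerate mutase, whose product loosens the hold of hemoglobin on oxygen. The pentose phosphate pathway branches off after hexokinase. Its oxidative arm makes NADPH, which keeps red cell glutathione reduced, and its non-oxidative arm makes ribose phosphate and returns carbon to glycolysis. Several steps have more than 1 gene, and the enzymes those genes encode, called isozymes, differ in tissue and in regulation.

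Replicate 1 held 70451041 estimated counts and replicate 2 held 13841484, a depth ratio of 5.09. A count of 0 allows up to 0.0426 CPM (counts-per-million) in the deeper replicate 1, against 0.217 CPM in the shallower replicate 2. The libraries stood far apart: of 8895 genes tested, 47.8% were called different, where called means at least 2-fold after scaling and an adjusted p under 0.05 in an exact binomial test. All 15 erythroid markers were detected, meaning at least 1 TPM (transcripts-per-million, which corrects for transcript length) in both libraries. Gata1, among them, can include reads of the introduced GATA1 fusion, which were not separated here. None of the markers of mast cells, neutrophils, monocytes, B cells, T and NK cells, or fibroblasts and endothelium was detected, whereas 3 of 8 megakaryocyte markers were.

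The deposited tables resolve 3 choices that the gene totals hide, and their sequences are shown here before the values. The gene Pkm (chromosome 9, 59656368 to 59679375, plus strand, mm10) makes either the M1 or the M2 form of pyruvate kinase by including 1 of 2 adjacent coding exons of 167 bases each. Transcript Pkm-202 holds the upstream exon, used in the M1 form, at chr9:59675029-59675195. Transcript Pkm-201 holds the downstream exon, used in the M2 form, at chr9:59675568-59675734. Of the 167 positions, 103 are identical (61.7%). The 64 that differ are in capitals below, in the letters of the GENCODE M21 transcripts.
Pkm-201 alternative exon: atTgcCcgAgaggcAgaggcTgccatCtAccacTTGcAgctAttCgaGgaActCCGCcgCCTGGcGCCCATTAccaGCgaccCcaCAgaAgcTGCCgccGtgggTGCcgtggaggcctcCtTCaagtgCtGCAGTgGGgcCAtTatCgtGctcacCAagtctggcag
Pkm-202 alternative exon: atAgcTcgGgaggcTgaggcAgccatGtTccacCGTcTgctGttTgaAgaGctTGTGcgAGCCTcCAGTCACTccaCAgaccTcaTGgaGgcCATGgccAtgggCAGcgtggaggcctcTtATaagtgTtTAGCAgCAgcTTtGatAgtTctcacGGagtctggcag

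The 2 highest transcripts of Hk1 (chromosome 10, 62268855 to 62379908, minus strand, mm10) differ in the exon that holds the start codon, and therefore in the first residues of hexokinase 1. The start of the widely expressed form is known for binding the outer mitochondrial membrane. Which of the 2 transcripts, if either, carries that start was not determined here. Of this pair, Hk1-202 begins nearer the body of the gene and Hk1-201 upstream of it. Each line gives the coding part of the exon with the start codon, ATG in capitals, read on the minus strand, at chr10:62358336-62358362 for Hk1-201 and chr10:62340013-62340075 for Hk1-202.
Hk1-201 exon from its start codon: ATGggacagaactgccagcgaggacag
Hk1-202 exon from its start codon: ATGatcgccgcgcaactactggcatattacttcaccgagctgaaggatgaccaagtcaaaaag

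The gene Pklr (chromosome 3, 89136142 to 89146784, plus strand, mm10) makes the red cell form of pyruvate kinase from an upstream start and the liver form from a downstream start. RefSeq on GRCm38.p6 gives a promoter for each, from 250 bases before to 50 bases after the start, at chr3:89135892-89136191 and chr3:89136373-89136672. The upstream start is that of Pklr-201. The downstream RefSeq start is that of Pklr-204, at 89136623. The coding transcripts Pklr-202 and Pklr-203 begin somewhat upstream of it, at 89136572 and 89136579. Capitals mark AGATAA (the GATA letters), CACCC and TATAAA, on either strand; ACGTG and TGATAA, also searched, were in neither window. AGATAA and TGATAA share the letters GATAA, and no matches overlap here.
Pklr promoter of the upstream start: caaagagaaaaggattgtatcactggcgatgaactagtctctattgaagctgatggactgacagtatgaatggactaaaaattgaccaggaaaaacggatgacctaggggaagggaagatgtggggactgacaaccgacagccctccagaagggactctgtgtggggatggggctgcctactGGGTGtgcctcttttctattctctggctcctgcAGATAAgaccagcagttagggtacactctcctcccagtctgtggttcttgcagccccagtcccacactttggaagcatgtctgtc
Pklr promoter of the downstream start: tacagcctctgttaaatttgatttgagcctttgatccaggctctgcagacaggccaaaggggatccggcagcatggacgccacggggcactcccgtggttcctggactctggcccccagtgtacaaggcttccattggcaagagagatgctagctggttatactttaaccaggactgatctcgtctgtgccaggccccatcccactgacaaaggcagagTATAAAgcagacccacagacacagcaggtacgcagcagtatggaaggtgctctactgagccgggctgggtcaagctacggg
The upstream window held AGATAA with its first base 35 bases before the start, and CACCC on the minus strand 68 bases before it. The downstream window held TATAAA 31 bases before the RefSeq start and neither AGATAA nor CACCC. That TATAAA, at chr3:89136592-89136597, lies downstream of where Pklr-202 and Pklr-203 begin. Among all 32851 RefSeq promoters, AGATAA is in 11.2%, CACCC in 57.5% and TATAAA in 13.6%, so a match by itself is common.

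Of the 37 genes, 30 were detected, or 81.1%, against 17.2% of all mouse genes. The median of the mean TPM was 30.4 over the 37 genes, against 0 over all 43346 mouse genes, most of which are not expressed in any 1 cell type. Together the 37 genes took 3.83% of the TPM in replicate 1 and 1.40% in replicate 2, a mean of 2.61% ± 1.71 (SD, n = 2). In 13 genes the level was over 100 TPM in both libraries, and in 2, Gapdh and Aldoa, over 1000 TPM in both. In a bulk sample, fewer cells that use a gene and less RNA per cell cannot be told apart.

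**Figure D1:**
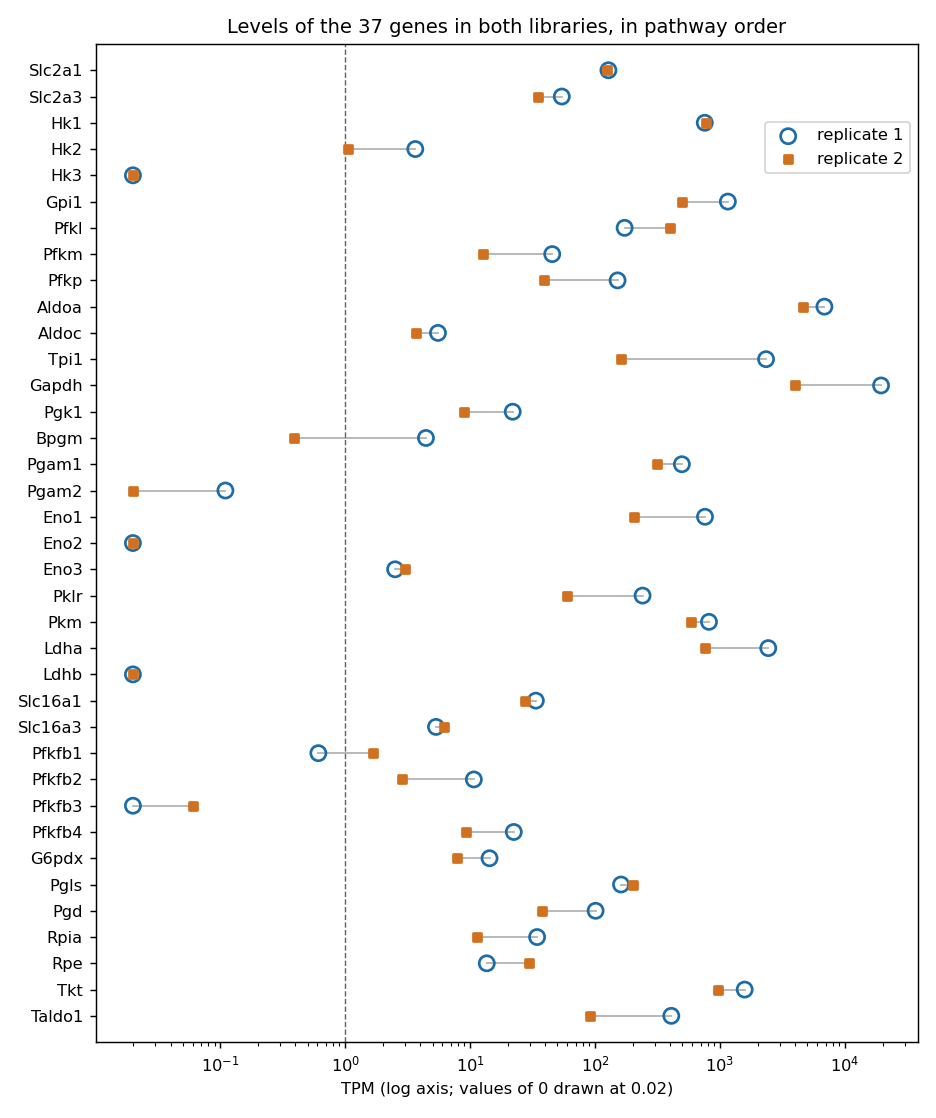
TPM of the 37 genes in replicate 1 (open circles) and replicate 2 (filled squares) on a log axis, in pathway order from top to bottom. The dashed line marks 1 TPM. On this scale 26 genes were higher in replicate 1 and 8 in replicate 2, and Hk3, Eno2 and Ldhb were at 0 in both. The same was not counted over all mouse genes.

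Glucose enters through the carriers encoded by Slc2a1 (GLUT1) and Slc2a3 (GLUT3). Slc2a1 had 128 TPM in replicate 1, against 125 TPM in replicate 2. Slc2a3 had 54.2 TPM in replicate 1, against 35.0 TPM in replicate 2. Slc2a1 thus held 70.3% of the 2 genes' TPM in replicate 1 and 78.2% in replicate 2. Lactate leaves through the carriers of Slc16a1 (MCT1) and Slc16a3 (MCT4). Slc16a1 had 33.6 and 27.3 TPM in replicates 1 and 2, and Slc16a3 had 5.33 and 6.15 TPM. Slc16a1 led in both libraries with 86.3% and 81.6% of the pair. None of these 4 carrier genes was called different between the libraries.

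Among 14 other carriers of glucose and monocarboxylates, 4 were detected. Bsg, the partner that takes the monocarboxylate carriers to the membrane, had 844 and 942 TPM in replicates 1 and 2. Slc2a8, an intracellular hexose carrier, had 58.1 TPM in replicate 1, against 329 TPM in replicate 2, and was called higher in replicate 2. Slc16a6 had 61.5 and 28.3 TPM in replicates 1 and 2 and was called higher in replicate 1. Slc16a10, a carrier of aromatic amino acids, had 17.0 and 21.9 TPM and was not called. Slc2a4, the carrier that insulin moves to the membrane of muscle and fat, had 15 counts in replicate 1 and 0 in replicate 2.

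Hexokinase, which traps glucose by adding a phosphate, was almost wholly Hk1. Hk1 had 755 TPM in replicate 1, against 772 TPM in replicate 2, an average of 763 ± 11.7 (SD, n = 2), and this spread was small. Hk2, the isozyme of muscle and of many tumors, had 3.64 and 1.06 TPM in replicates 1 and 2, and Hk3 had 0 counts in both. Hk1 therefore held 99.5% of the step in replicate 1 and 99.9% in replicate 2.

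Within Hk1, the transcript that begins upstream of Hk1-202 led in both libraries. Other models begin farther upstream still and had 0 counts. Hk1-201 took 82.2% of the gene's TPM in replicate 1 and 87.2% in replicate 2. Hk1-202 took 12.2% in each of the 2 libraries. Hk1-212, a short coding model of 896 bases, took 5.18% in replicate 1 and 0.59% in replicate 2. The sequence of the Hk1-201 start codes for a different first stretch of protein from that of Hk1-202. Which of these transcripts matches the form described in human red cells was not determined here.

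Glucose-6-phosphate isomerase, encoded by Gpi1, had 1156 TPM in replicate 1, against 495 TPM in replicate 2. It was called higher in replicate 1 by 2.17-fold on scaled counts.

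Phosphofructokinase, the main point of control in glycolysis, was the step whose leading share moved most between the libraries. Pfkl, the liver type, had 172 TPM in replicate 1, against 398 TPM in replicate 2. Pfkm, the muscle type, had 45.4 TPM in replicate 1, against 12.6 TPM in replicate 2. Pfkp, the platelet type, had 151 TPM in replicate 1, against 38.7 TPM in replicate 2. Pfkl led in both, with 46.7% of the step in replicate 1 and 88.6% in replicate 2, and Pfkp held 41.0% and 8.62%.

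Much of the Pfkp value rests on 1 short transcript model. Pfkp-206, a retained-intron model of 931 bases, took 86.4% of the gene's TPM in replicate 1 and 90.9% in replicate 2, and the protein-coding transcripts took 2.84% and 2.79%. On TPM of protein-coding transcripts alone, Pfkp had 4.30 and 1.08 TPM in replicates 1 and 2. Pfkl then held 77.5% of the step in replicate 1 and 96.7% in replicate 2, and Pfkm 20.5% and 3.06%. Pfkl led on both scales in both libraries.

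**Figure D2:**
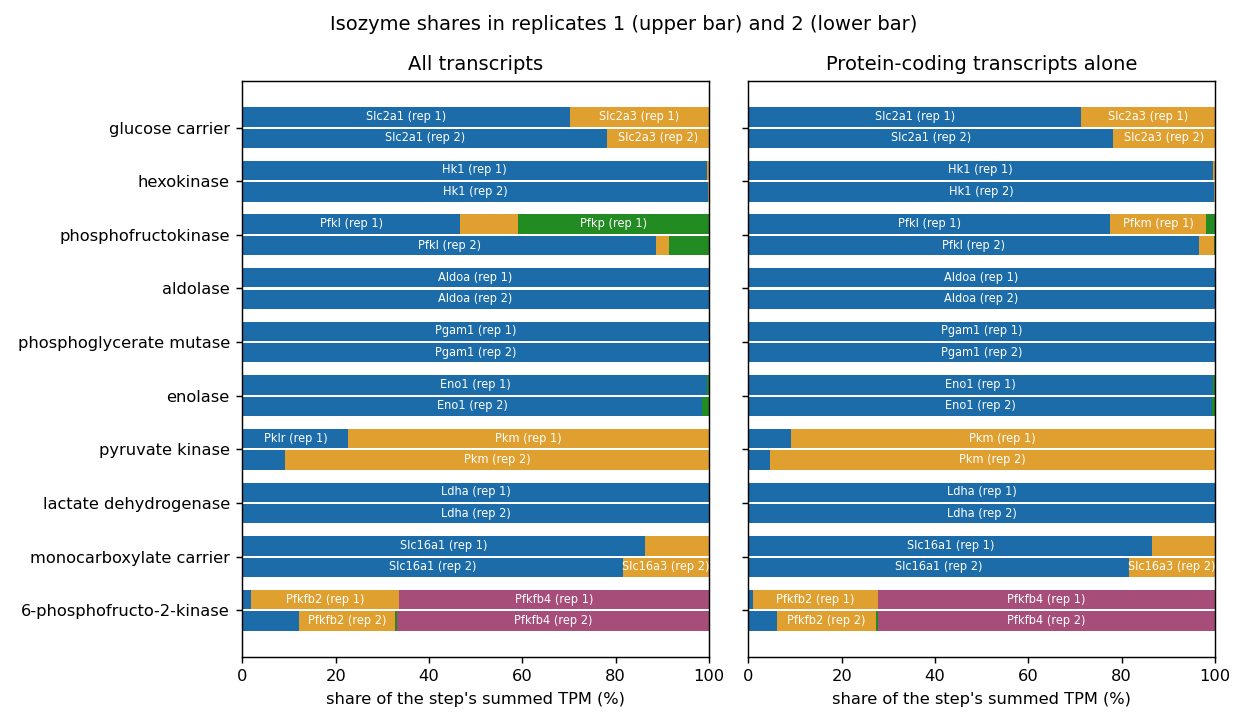
Share of each step's summed TPM held by each isozyme, for the 10 steps with more than 1 gene; the upper bar of each pair is replicate 1 and the lower is replicate 2. The left panel uses all transcripts and the right panel protein-coding transcripts alone; the same isozyme led in both libraries at all 10 steps on both scales.

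The level of fructose 2,6-bisphosphate, the activator of phosphofructokinase, is set by 4 genes with paired kinase and phosphatase activities. Pfkfb4 had 22.4 TPM in replicate 1, against 9.19 TPM in replicate 2, or 66.4% and 66.8% of the 4 genes. Pfkfb2 had 10.7 and 2.83 TPM in replicates 1 and 2. Pfkfb1 was not detected in both libraries, with 0.61 and 1.68 TPM in replicates 1 and 2, on 41 and 20 counts. Pfkfb3, the isozyme with the highest ratio of kinase to phosphatase activity, had 0 counts in replicate 1 and 3 counts in replicate 2.

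Aldolase was Aldoa, at 6850 TPM in replicate 1, against 4631 TPM in replicate 2, or 99.9% of the step in both. Aldoc, the brain type, had 5.53 and 3.67 TPM. Triose phosphate isomerase, which joins the 2 products of aldolase into 1 stream, is encoded by Tpi1. Tpi1 had 2337 TPM in replicate 1, against 160 TPM in replicate 2, a ratio of 14.6, which was the widest in TPM among the detected members. Its protein-coding transcripts had 560 and 68.6 TPM in replicates 1 and 2, and Tpi1-204, a retained-intron model of 446 bases, held 76.0% and 57.1% of the gene's TPM.

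Gapdh, the oxidizing step and a gene often used to normalize other genes, was the highest member in replicate 1 and second to Aldoa in replicate 2. It had 19452 TPM in replicate 1, against 4020 TPM in replicate 2. This was 50.8% of all TPM of the 37 genes in replicate 1 and 28.7% in replicate 2. Aldoa held 17.9% in replicate 1 and 33.0% in replicate 2. Gapdh-206, a retained-intron model of 565 bases at the end of the gene, took 73.2% and 78.2% of the gene's TPM. Its other transcripts above 5% were both protein-coding. Gapdh-212 took 25.9% in replicate 1 and 8.53% in replicate 2, and Gapdh-201 took 0.02% and 11.9%. On TPM of protein-coding transcripts alone Gapdh had 5159 TPM in replicate 1, against 863 TPM in replicate 2, below Aldoa, which had 5811 and 2414 TPM. In replicate 1 the order of these 2 genes thus depended on the transcripts counted.

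The next steps stood lower. Pgk1, which makes the first ATP of the pathway, had 21.9 TPM in replicate 1, against 9.01 TPM in replicate 2, placing its step 19th and 20th of 22. Bpgm, the enzyme of the red cell side path, had 4.43 TPM on 601 counts in replicate 1 and 0.39 TPM on 9 counts in replicate 2. It was the lowest of the 22 steps in both libraries. Pgam1, the mutase of the main path, had 495 and 313 TPM in replicates 1 and 2, and Pgam2, the muscle type, had 5 counts in replicate 1 and 0 in replicate 2. Eno1, the general enolase, had 758 TPM in replicate 1, against 205 TPM in replicate 2, Eno3, the muscle type, had 2.51 and 2.99 TPM, and Eno2, the neuronal type, had 0 counts in both.

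Pyruvate kinase was led by Pkm, with 816 TPM in replicate 1, against 588 TPM in replicate 2. Pklr, the gene of the red cell and liver forms, had 240 TPM in replicate 1, against 59.4 TPM in replicate 2. Pkm held 77.3% of the step in replicate 1 and 90.8% in replicate 2, and 91.0% and 95.4% on protein-coding transcripts alone. Within Pkm, the transcript with the downstream exon of the M2 form took 96.4% of the gene's TPM in replicate 1 and 99.2% in replicate 2. The M1 transcript, Pkm-202, took 3.61% on 4629 counts in replicate 1 and 0.84% on 127 counts in replicate 2.

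Pklr was spread over 5 transcripts. Pklr-201, the coding transcript of the upstream start, had 47.2 TPM in replicate 1, against 17.1 TPM in replicate 2. Pklr-202, a coding transcript that begins just upstream of the downstream RefSeq start, had 21.7 and 6.44 TPM in replicates 1 and 2. The short coding Pklr-203 had 12.3 and 4.74 TPM. The short non-coding models led the gene's TPM: Pklr-205 took 65.2% in replicate 1 and 18.0% in replicate 2, and Pklr-204 took 0.98% and 34.4%. Counted by estimated counts, the transcripts of the upstream start, whose promoter holds AGATAA, took 71.2% in replicate 1 and 67.3% in replicate 2. By TPM they took 84.9% and 46.8%, a difference that lies in the 2 short non-coding models.

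Lactate dehydrogenase was Ldha alone. Ldha, the muscle type, had 2435 TPM in replicate 1, against 764 TPM in replicate 2, and Ldhb, the heart type, had 0 counts in both. Ldha also changed its leading transcript: Ldha-208 took 48.8% in replicate 1 and 0 TPM in replicate 2, and Ldha-206, a coding model of 645 bases, took 42.2% and 77.0%. Ldha-202 took 7.69% and 9.15%, and Ldha-203 took 1.30% and 13.9%.

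All 7 pentose phosphate genes were detected. In the oxidative arm, G6pdx, the entry enzyme, had 14.3 TPM in replicate 1, against 7.89 TPM in replicate 2. Pgls, which opens the lactone, had 161 and 200 TPM in replicates 1 and 2. Pgd, the second NADPH-making enzyme, had 101 TPM in replicate 1, against 37.5 TPM in replicate 2. The entry enzyme was thus the lowest of the arm in both libraries.

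The non-oxidative arm stood higher in summed TPM, most of it from Tkt. Tkt, transketolase, had 1576 TPM in replicate 1, against 956 TPM in replicate 2, and Taldo1, transaldolase, had 408 and 91.3 TPM. The isomerase gene Rpia had 34.4 TPM in replicate 1, against 11.4 TPM in replicate 2, and the epimerase gene Rpe had 13.6 and 29.4 TPM. Rpia and Rpe lay below Pgls and Pgd of the oxidative arm in both libraries. The 4 genes of this arm summed to 2031 TPM in replicate 1, against 1088 TPM in replicate 2. The 3 genes of the oxidative arm summed to 277 and 245 TPM.

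**Figure D3:**
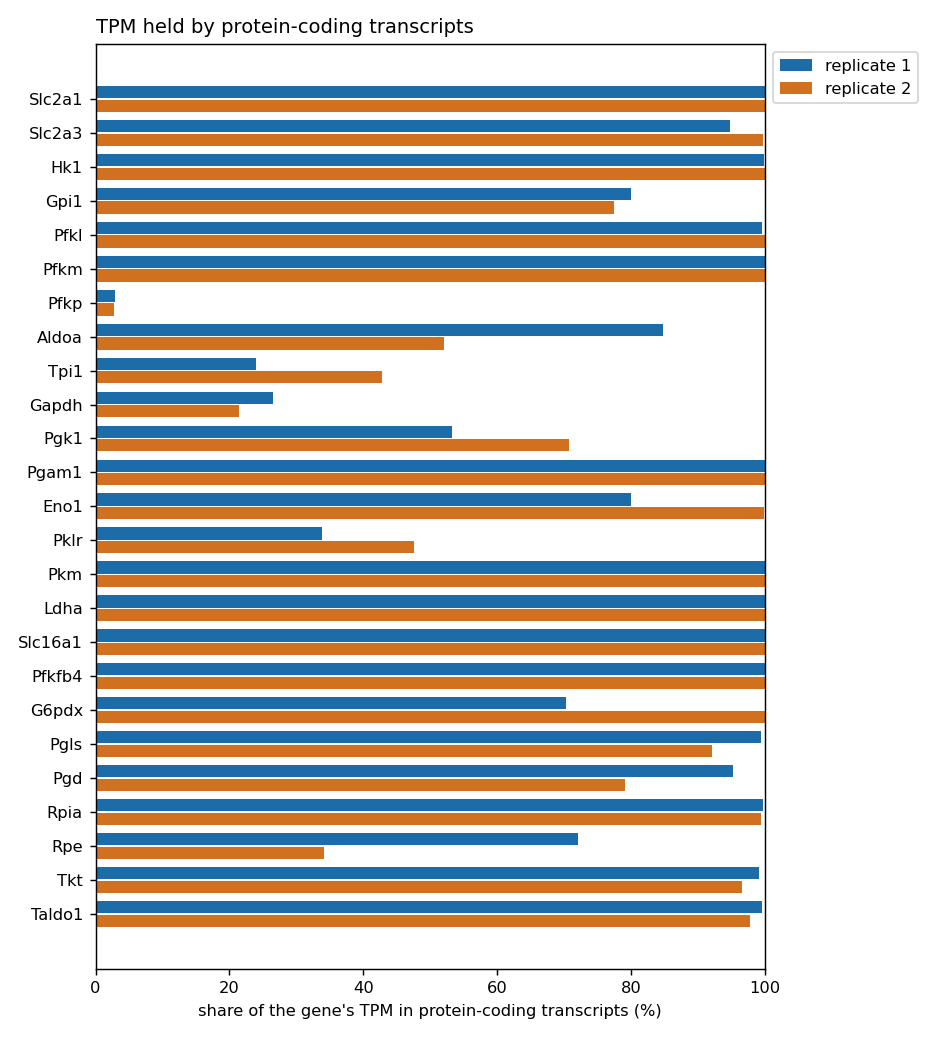
Percent of each gene's TPM that lay in protein-coding transcripts, for the genes with a mean of at least 10 TPM, in replicate 1 (upper bar) and replicate 2 (lower bar). Pfkp, Gapdh, Tpi1 and Pklr lay below 50% in both libraries, and Rpe only in replicate 2.

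Of the 22 members with a mean of at least 10 TPM and more than 1 transcript, 16 were led by 1 and the same transcript in replicates 1 and 2, or 72.7%, against 66.5% of all such genes. In 6 of the 22 the lead went to a transcript that is not protein-coding in at least 1 library. The leads differed in Pfkm, Aldoa, Pklr, Ldha, Pgls and Rpe. In Pfkm, Pfkm-201 led replicate 1 with 53.3%, and Pfkm-202 led replicate 2 with 84.0%. In Aldoa, Aldoa-201 led replicate 1 with 78.4%, and the retained-intron model Aldoa-209 led replicate 2 with 47.8%. In Pgls, Pgls-201 led replicate 1 with 90.1%, and the shorter Pgls-204 led replicate 2 with 43.8%. In Rpe, Rpe-201 led replicate 1 with 65.1%, and Rpe-204, annotated for nonsense-mediated decay, led replicate 2 with 65.9%.

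To set the 2 libraries side by side, rounded counts were compared with the exact binomial test, adjusted by Benjamini-Hochberg over all 8895 genes. This test compares 2 libraries, not conditions. Of 32 members tested, 16 were called higher in replicate 1 (50%), against 30.2% of all tested genes, and 2 were called higher in replicate 2 (6.25%), against 17.7%. With total counts the members were 17 higher and 1 lower in replicate 1, and of all tested genes 39.9% were higher and 10.7% lower. The median log2 ratio, replicate 1 over replicate 2, was 0.89 over the 32 members and 0.21 over all tested genes. The SD of the log2 ratios was 1.11 over the members and 1.69 over all tested genes. A positive ratio was seen in 25 of 32 members. The share over all tested genes was not counted, and their median of 0.21 was itself above 0.

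The members called higher in replicate 1 were Hk2, Gpi1, Pfkm, Pfkp, Tpi1, Gapdh, Pgk1, Bpgm, Eno1, Pklr, Ldha, Pfkfb2, Pfkfb4, Pgd, Rpia and Taldo1. They lay at most steps from Gpi1 to Ldha. At phosphofructokinase and pyruvate kinase, Pfkm, Pfkp and Pklr did not lead their steps. The leading genes were Pfkl, called higher in replicate 2, and Pkm, not called. Pgk1 had a log2 ratio of 1.13, and of 0.73, with no call, on counts of protein-coding transcripts alone. The log2 ratio was highest for Bpgm, at 3.24 (exact 95% interval 2.38 to 4.45, counting error alone). It was 2.91 for Tpi1 (2.83 to 2.98), 2.02 for Taldo1 (1.93 to 2.11) and 2.01 for Gapdh (1.99 to 2.03). The members called higher in replicate 2 were Pfkl, with a log2 ratio of -1.34 (-1.37 to -1.32; -0.94 and no call with total counts), and Pfkfb1, with -1.73 (-2.51 to -0.86). The log2 ratio of Pfkfb1 fell short of 2-fold on TPM with a pseudocount of 1 (-0.74), and the gene was too low to be tested at a mean CPM of at least 10 or on protein-coding counts.

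The 14 tested members that were not called lay within 2-fold on scaled counts. They were the 4 carrier genes, Hk1, Aldoa, Aldoc, Pgam1, Eno3, Pkm, G6pdx, Pgls, Rpe and Tkt. Aldoa, at a log2 ratio of 0.65, passed 2-fold and was called higher in replicate 1 with total counts (1.05) and on counts of protein-coding transcripts alone (1.11). Hk1 had a log2 ratio of -0.21, Slc2a1 of -0.11 and Pkm of 0.34. With total counts in place of TMM the ratios of Hk1 (0.18), Slc2a1 (0.29) and Pgls (0.066) were above 0. Eno3 rested on 212 and 25 counts in replicates 1 and 2, and its interval ran from -0.26 to 1.00. The 5 members left untested for low counts were Hk3, Pgam2, Eno2, Ldhb and Pfkfb3.

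**Figure D4:**
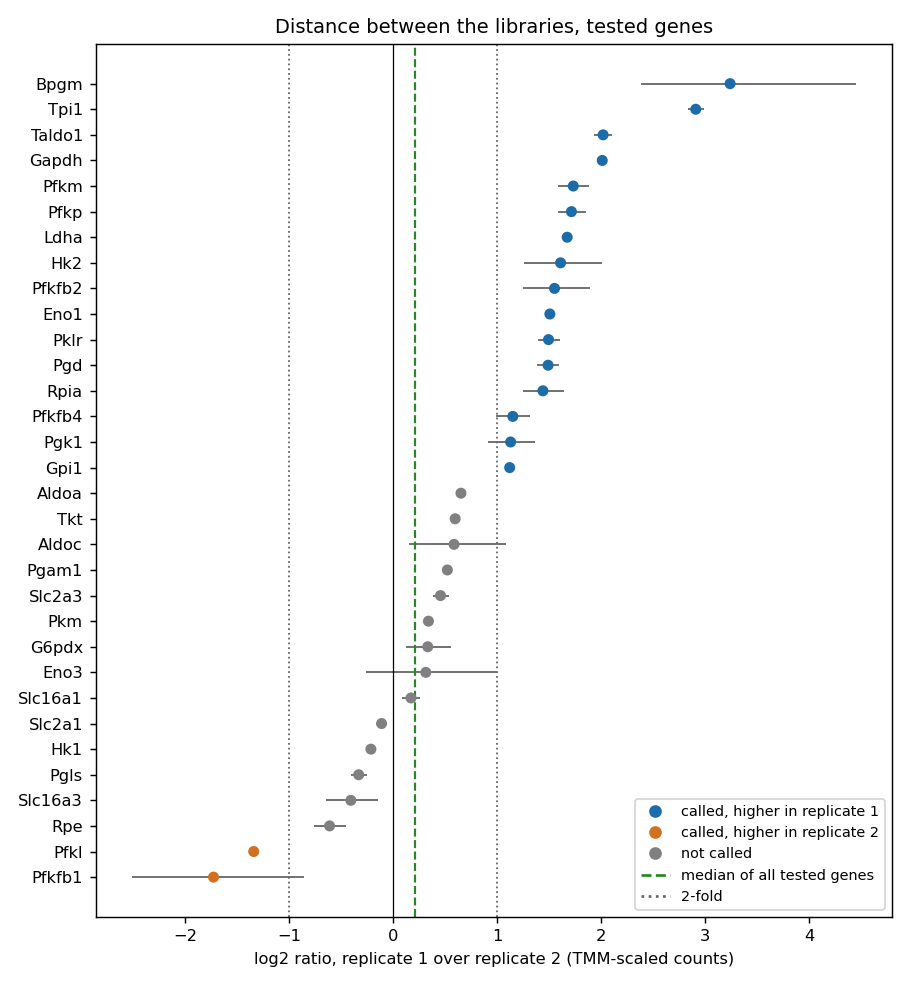
Log2 ratio of scaled counts, replicate 1 over replicate 2, for the 32 members tested, with exact 95% intervals for counting error. Blue points (16) were called higher in replicate 1, orange points (2) higher in replicate 2, and grey points (14) were not called; the dotted lines mark 2-fold and the dashed line the median of all tested genes, 0.21.

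By branch, 11 of the 18 tested genes of the glycolytic steps were called higher in replicate 1 and 1 higher in replicate 2, where 30.2% and 17.7% of all tested genes were. Of the 7 pentose phosphate genes 3 were called higher in replicate 1, and of the 3 tested fructose 2,6-bisphosphate genes 2 were called higher in replicate 1 and 1 in replicate 2. Numbers this small say little beside those shares. The median log2 ratio was 1.31 over the tested glycolytic genes, 0.60 over the pentose phosphate genes and 0.03 over the carriers. Of the 15 erythroid markers 6 were called higher in replicate 1 and 2, Klf1 and Zfpm1, higher in replicate 2, and 7 were not called. Their summed TPM, most of it from globin genes, was 237536 in replicate 1 and 95381 in replicate 2. Of the 8 megakaryocyte markers 4 could be tested; none was called higher in replicate 1, and 2, Gp1ba (log2 ratio -1.01) and Gp9 (-1.28), were called higher in replicate 2. Their summed TPM was 22.8 in replicate 1 and 37.9 in replicate 2, and Pf4 and Ppbp were at 0 in both. The part of these marker genes in the members' shift was not tested.

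The distance between the libraries moved with base composition over all genes. The median log2 ratio was 0.62 over 1839 tested genes with under 45% G+C and -0.88 over 406 genes with over 60%. Across the 8442 tested genes with a protein-coding transcript Pearson's r between G+C content and log2 ratio was -0.24, and Spearman's rho was -0.24. Across the 32 tested members r was -0.03 and rho was -0.11. These are descriptions across genes, which share the 2 libraries, and the difference between members and all genes was not tested. Of the 32 members 16 lay between 50% and 55%, where the median of all tested genes was 0.34. The part of base composition in the shift was not tested.

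**Figure D5:**
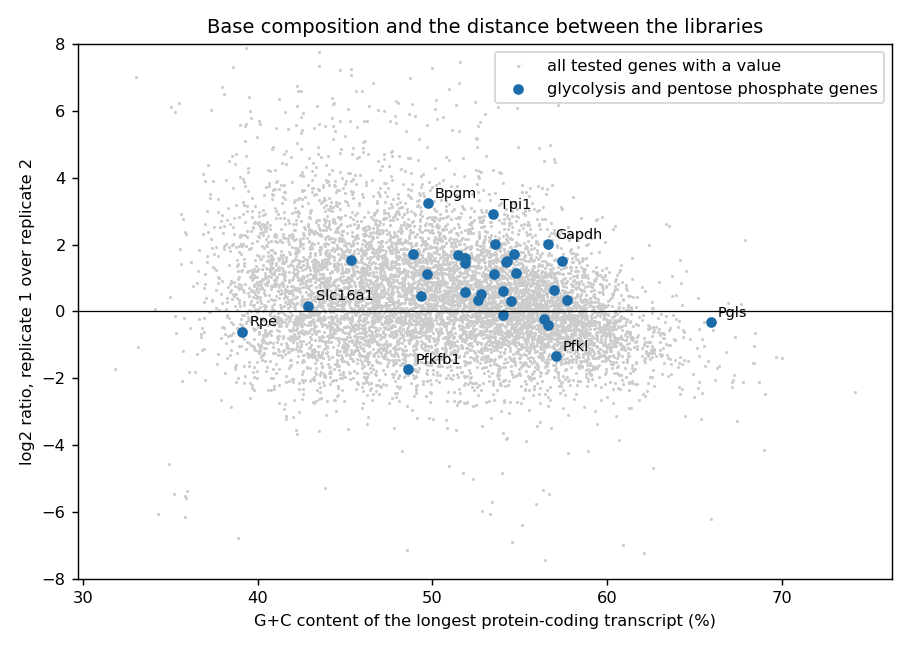
G+C content of the longest protein-coding transcript and log2 ratio of scaled counts, replicate 1 over replicate 2, for all tested genes with a value (grey) and for the 32 tested members (blue). The members sit mostly between 45% and 60% G+C; 10 genes beyond 8 on the log2 scale are not drawn.

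Near-identical copies and overlapping genes could share reads with some members. Of the 32 members with counts in both libraries, 26 had whole counts in both (within 0.005 of a whole number). Gpi1, Gapdh, Pgk1, Pgam1, Eno1 and Pgls did not, so their reads were in part split with other entries. The posterior SD of the count, in percent of its mean, was 0.465 and 2.58 for Pgk1 in replicates 1 and 2. It was at most 0.504 for the other genes with split reads. Pfkfb2, whose counts were whole, had 3.33 in replicate 2. How far the split moved the levels was not tested. Copies were searched by gene name alone, and none was sought for Pgls, so some may be missed. The largest copy found was Eno1b, with 16931 counts in replicate 1 and 1277 in replicate 2, or 153 and 70.2 TPM. The pseudogene Pgam1-ps2 had 738 and 7.44 counts in replicates 1 and 2, and Pgk1-rs7 had 70.1 counts in replicate 1 and 0 in replicate 2. The exons of 14 members overlap those of a gene on the other strand, and the sources used here do not say whether counting used strand. Pfkm overlaps Senp1 (4943 and 2836 counts in replicates 1 and 2), Pfkp overlaps Pitrm1 (3377 and 409 counts), and Gapdh overlaps Iffo1 (5432 and 2857 counts), so how reads in the overlaps were assigned is not known. The counts of Pfkm, Pfkp, Senp1 and Pitrm1 were whole in both libraries, and those of Gapdh and Iffo1 were not. Pgls overlaps Fam129c on the same strand, and Fam129c also had fractional counts, 219.36 and 49.33 in replicates 1 and 2. Which entries shared reads with the members was not tested.

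Other isozymes of the same steps were mostly not detectable at this depth. Of 14 such genes 3 were detected and 9 had 0 counts in both libraries, among them Gapdhs, Pgk2 and Ldhc. Besides Eno1b, the detected ones were Pgam5, a mitochondrial phosphatase of the mutase family, with 8.23 and 4.06 TPM in replicates 1 and 2, and Adpgk, the ADP-dependent glucokinase, with 2.39 and 8.45 TPM. H6pd, the NADPH-making enzyme of the endoplasmic reticulum, had 0.45 and 1.45 TPM and, like Adpgk, was called higher in replicate 2. Of 8 genes of gluconeogenesis and bypass 3 were detected. Fbp1, Fbp2 and G6pc had 0 counts in both, and Pcx, pyruvate carboxylase, was the highest, with 78.5 and 65.5 TPM in replicates 1 and 2. Tigar, which lowers fructose 2,6-bisphosphate, had 34 counts in replicate 1 and 0 in replicate 2.

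RefSeq promoters were found for 36 of the 37 genes, with 55 promoters in all. The letters ACGTG, on either strand and shared by hypoxia response elements and E-boxes, were in 21 of the 55 (38.2%), over 17 genes, against 19.6% of all 32851 promoters. CACCC was in 38 (69.1%), against 57.5%. AGATAA was in 8 (14.5%), over Eno3, Pfkfb1, Pfkfb2, Pfkm and Pklr, against 11.2%. TGATAA was in 5 (9.09%), against 9.05%, and TATAAA in 4 (7.27%), against 13.6%. These are counts of letters and were not tested, and promoters of 1 gene can overlap.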

How the data were processed

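PolyA RNA of 2 libraries of G1E-ER4 cells was sequenced with paired ends. Per the labels, the values lie on the mm10 assembly, and per the deposited text the annotation was GENCODE M4. The sources used here name no aligner or quantification tool and do not state how strand was used. The authors deposited estimated counts, often fractional, in a maximum likelihood and a posterior mean version, for genes and transcripts. The deposited TPM values are corrected for effective length and add up to the same total in both libraries. The deposited FPKM values are scaled by kilobase and by fragments. The deposited transcript tables hold, for a transcript, the percent it takes of its gene's TPM. Other deposited columns, such as lengths and posterior standard deviations, are descriptive and carry no further scaling by the authors.

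Symbols, transcript classes and positions came from GENCODE M21 on the same assembly, matched by identifier without version: 42462 of 43346 mouse genes had a symbol. Members and lists were chosen with earlier results of these data known. All members are named; transcripts are named where the lead differs or, in Pkm, Pklr, Hk1, Gapdh and Ldha, above 5%, with Pkm-202 added for its exon and Pfkp-206 and Tpi1-204 added after their values were seen. Other genes come from lists of related pathways, taken from the highest and the called ones, and not all called ones are named. Levels are the mean and SD of 2 TPM values. Library sizes of the rounded counts were scaled by edgeR 4.0.16 with the TMM method, whose factors were 1.15 and 0.871. Every gene averaging 1 CPM or more entered a two-sided exact binomial test of replicate 1 against the share expected from the scaled sizes, with Benjamini-Hochberg adjustment (scipy 1.17.1), and a prior count of 0.5 in log2 ratios. The limit for 0 counts is 3 counts of the library total. Intervals cover counting error only. The test was tried on simulated libraries that held counting error and set shifts alone. This does not show how it behaves where libraries differ in other ways. DESeq2 1.42.0 size factors were an alternative. Promoters are from RefSeq. A later series that the title says supersedes this one was not used here.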

Additional observations from a re-analysis of the deposited data

How the results depend on the processing

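The number of detected members was 26 to 31 under other minimums, units and single libraries. Leaving out 1 library gave 31 either way. The same isozyme led all 10 steps under every alternative tried. The median level of the 37 genes was 45.4 TPM without replicate 2 and 29.4 TPM without replicate 1. It was 48.0 with counts per kilobase of the longest protein-coding transcript, an alternative chosen after seeing the data, as were those on protein-coding transcripts alone. The count of members called higher in replicate 1 stayed between 15 and 18, and that higher in replicate 2 was 1 with total counts, 1 with a mean CPM of at least 10 and 1 on counts of protein-coding transcripts alone, and 3 with no filter, at 1.5-fold and on TPM with a pseudocount of 0.1. Scaling moved the median of all tested genes: the log2 ratio was 0.21 with TMM, 0.14 with DESeq2 and 0.61 with total counts, which moves members and all genes alike. The gap between the median of the tested members and that of all tested genes was 0.68, and 0.89 with no filter, 1.09 with a mean CPM of at least 10 and 0.75 on protein-coding counts. The sign turned for members near 0. With total counts the log2 ratio was 0.29 for Slc2a1, 0.18 for Hk1 and 0.066 for Pgls. With TPM it was 0.03 for Slc2a1 with either pseudocount (0.0284 and 0.0282), and for Eno3 -0.24 with a pseudocount of 0.1 and -0.18 with 1. Pfkl lost its call with total counts (-0.94), Pgk1 on protein-coding counts (0.73) and Pfkfb1 on TPM with a pseudocount of 1 (-0.74). Aldoa gained one with total counts (1.05) and on protein-coding counts (1.11). Rpe passed 2-fold on TPM with either pseudocount, higher in replicate 2, at 13.6 and 29.4 TPM in replicates 1 and 2. The cause was not tested. With 2 libraries the shift cannot be computed without one. No paired analysis was possible because there is 1 group.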

Other observations

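Downstream of pyruvate, 10 of 13 genes of pyruvate entry into mitochondria and 19 of 20 genes of the citric acid cycle were detected. Kinases that switch pyruvate dehydrogenase off are encoded by the Pdk genes: Pdk1 had 63.6 and 126 TPM in replicates 1 and 2, and Pdk2 had 72.8 and 50.4 TPM. The subunit gene Pdha1 had 3.25 and 1.94 TPM, and Pdhb had 23.4 and 3.04 TPM. In the citric acid cycle 8 of 19 tested genes were called higher in replicate 1 and 2 higher in replicate 2, beside 30.2% and 17.7% of all tested genes. Dlst had 186 TPM in replicate 1, against 452 TPM in replicate 2, and Mdh2 had 364 and 241 TPM. The cytosolic and mitochondrial NADP-linked isocitrate dehydrogenase genes were low, with 1.56 and 1.33 TPM for Idh1 and 45 and 2 counts for Idh2 in replicates 1 and 2.

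Of 16 genes of regulators of glycolytic genes 13 were detected, and of the 13 tested 1 was called higher in replicate 1 and 3 higher in replicate 2, beside the same shares. Txnip, which curbs glucose uptake, was the one called higher in replicate 1, with 1250 and 92 counts in replicates 1 and 2 and a log2 ratio of scaled counts of 1.01, while its TPM ran the other way, at 7.76 and 10.3. Among those called higher in replicate 2, Klf1, the erythroid Krüppel-like factor that binds CACCC letters, had 665 TPM in replicate 1, against 2351 TPM in replicate 2. Gata1, with 3038 and 2940 TPM, Myc, with 88.9 and 165 TPM, and Hif1a, with 20.2 and 17.3 TPM, were not called. Reads of Gata1 can come from the introduced GATA1 fusion and were not told apart from those of the native gene. Egln2, an oxygen-dependent hydroxylase that acts on HIF, was likewise called higher in replicate 2, with 143 and 340 TPM in replicates 1 and 2, and Epas1, Egln3 and Mlxipl had at most 3 counts in either library. Of 9 genes that make or use sugar phosphates of the pentose phosphate pathway, NADP or NADPH, 7 were detected. Nadk, which makes NADP, had 38.1 and 46.5 TPM in replicates 1 and 2, and Gsr, glutathione reductase, 20.9 and 33.9 TPM. Of 9 genes of the glycerol phosphate and polyol branches 7 were detected; Pgp, a phosphatase of glycolytic side products, had 120 TPM in replicate 1, against 271 TPM in replicate 2, and Sord, sorbitol dehydrogenase, had 149 and 74.2 TPM.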
